A study of Bos taurus with 48 samples.

Results

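The comparison described here was between heifers reared on high-protein (HP) and low-protein (LP) diets, in the subcutaneous adipose tissue they carried in month 7 of gestation. It took in the 24 libraries labelled as taken during pregnancy, of the 48 in the series, and set 12 HP heifers against 12 LP heifers. The animals were Norwegian Red cattle, a dairy breed, and each heifer also gave a library at 12 months of age. During rearing they had been fed 1 of 4 diets, named by protein and energy level: HPHE, LPHE, HPLE and LPLE, with HE and LE for high and low energy and 6 heifers on each. Each diet held 3 heifers of the HMY pedigree and 3 of the LCM pedigree, the high milk-yield and low clinical mastitis selection lines. Once the heifers were pregnant the experimental diets ended and all groups had free access to the same low-energy feed, so when these samples were taken HP and LP named what an animal had eaten earlier, not what it was eating. The question was whether the earlier protein level could still be seen in the fat, over both energy levels and within each.

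Subcutaneous fat stores triglyceride and, in ruminants, is a main site where acetate is built into fatty acids. This takes acetyl-CoA carboxylase and fatty acid synthase, with citrate exported from mitochondria and NADPH made in the cytosol. Dietary protein reaches the tissue as amino acids, which adipocytes can burn through the branched-chain amino acid pathway, and the tissue answers to insulin, growth hormone, prolactin and thyroid hormone.

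Reads counted on genes numbered 22430093 to 61027456 in HP libraries (median 42789608.5) and 28230549 to 48003078 in LP libraries (median 43359905.5). The tissue label was borne out by the 4 adipocyte markers that carried an identifier, among them the hormone leptin (LEP) and the lipid droplet protein CIDEC, whose CPM (the counts scaled to a common library size) summed to between 2243 and 12661 in every heifer. The share of counted reads that fell on genes averaged 53.6% ± 5.84 (SD, n = 12) in HP and 57.5% ± 2.13 (SD, n = 12) in LP (p = 0.0219, permutation test over 100000 resamples, two-sided). The lowest shares were those of HPLE heifer 7 (39.0%) and HPHE heifer 23 (45.1%). Multidimensional scaling placed 3 libraries apart on the first dimension, HPHE heifer 2 (1.70), HPLE heifer 13 (1.67) and HPHE heifer 19 (1.19), with the other 21 between -0.97 and 0.49. All 3 were HP heifers. Their summed CPM of fibroblast markers, which include the collagen genes COL1A1, COL1A2 and COL3A1, was 80451 to 105564. That was above all 12 LP heifers (19806 to 67927). So were HPHE heifer 15 at 87052 and HPLE heifer 9 at 68130, which were not apart on this dimension. Skeletal muscle markers were high in HPHE heifer 19 and HPLE heifer 17 and are given with MYH2.

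HP and LP heifers did not form separate clusters. The difference in mean position was 0.24 on the first dimension, which held 20.8% of the variation (p = 0.455, permutation test), and 0.18 on the second, which held 11.6% (p = 0.454, permutation test). On that second dimension HE and LE heifers differed by 0.77 (p = 0.0001, permutation test).

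**Figure D1:**
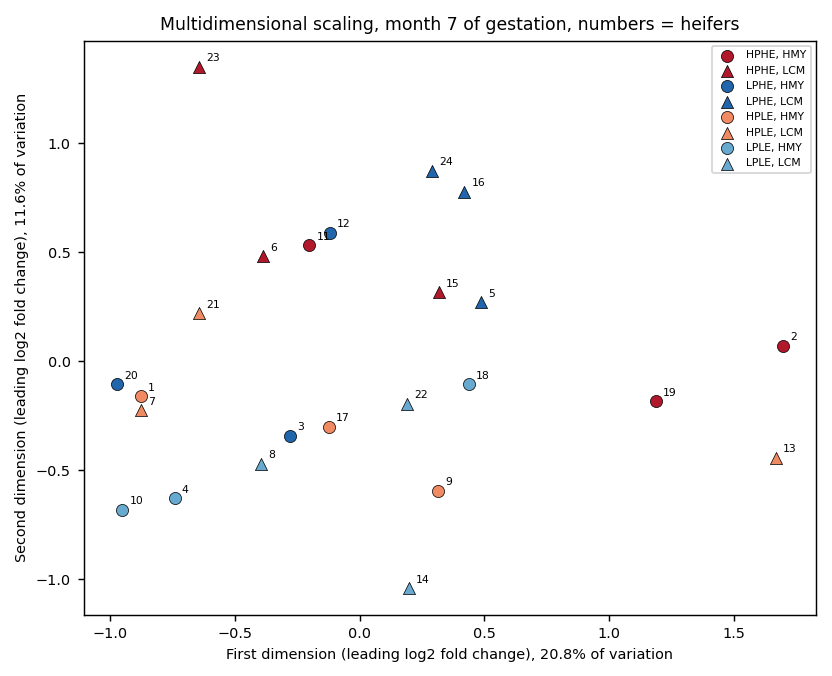
Multidimensional scaling of the 24 gestation libraries on the 500 most different genes of each pair, in units of leading log2 fold change, with a circle for HMY and a triangle for LCM heifers and the heifer number beside each. HP (red and orange) and LP (blues) intermix, HE heifers lie mostly higher on the second dimension, and heifers 2, 13 and 19 lie apart at 1.19 or more on the first.

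Dietary protein left few genes different. With energy level and pedigree in the model, 11 of 13403 genes were called between HP and LP at a false discovery rate (FDR, the Benjamini-Hochberg adjusted p of the edgeR likelihood ratio test) under 0.1, which is 0.0821% of the genes tested. Of these 7 were higher (0.0522%) and 4 lower (0.0298%) in HP heifers. At an unadjusted p under 0.05 there were 528 genes (3.94%), fewer than the 5% that this threshold would pass if no gene differed. Energy, tested in the same fit, gave 915 calls (6.83%), 326 higher (2.43%) and 589 lower (4.39%) in HE. With library size in place of TMM it gave 917, of which 515 were higher and 402 lower, so the balance of directions depended on the scaling. The paper reports that LE heifers became pregnant at an older age than HE heifers, and the diets ran until pregnancy. In month 7 of gestation the energy levels therefore also differed in age and in time on the diet. Whether these had a part in the energy calls was not tested. The 95% interval of the protein difference stayed within 2-fold for 96.3% of genes and within 1.5-fold for 84.8%, so for most genes larger differences lay outside it. Leaving out a heifer gave 17 to 27 calls without heifer 6, 12 or 24 and 2 to 7 without heifer 2, 3, 8, 13 or 20. The calls depended on the test too: the quasi-likelihood F test called 1 gene (MYH2) and DESeq2 called 3 (MYH2, ENSBTAG00000008288 and ENSBTAG00000017718).

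**Figure D2:**
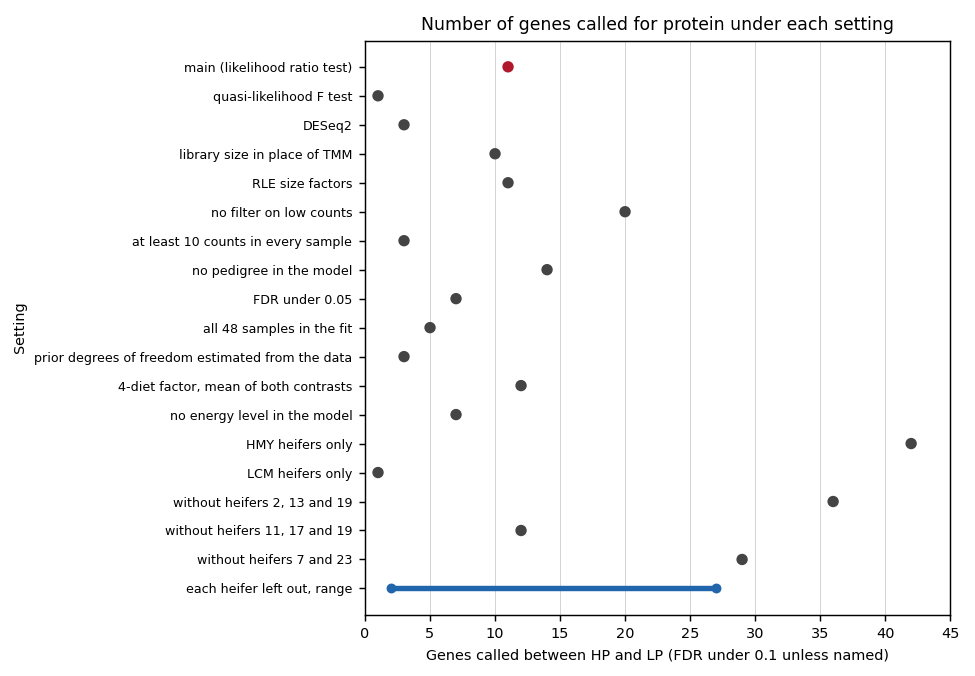
Number of genes called between HP and LP under each setting, with the reported count of 11 in red and the range over fits that leave out 1 heifer, 2 to 27, in blue. Settings that keep every gestation heifer and change the test, scaling, filter, threshold or covariates gave 1 to 20 calls, and those that keep only some heifers gave 1 to 42.

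Only 3 of the 11 called genes carried a symbol, MYH2, PKD2L1 and BDH1. The other 8 are given by their Ensembl identifiers, and what they encode was not analysed here.

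BDH1, the mitochondrial 3-hydroxybutyrate dehydrogenase that interconverts the ketone bodies acetoacetate and 3-hydroxybutyrate, was lower in HP heifers. It ranged from 0.237 to 34.1 CPM in HP (median 3.35) and from 0.764 to 112 CPM in LP (median 13.8). The groups overlapped widely, with 3 LP heifers above every HP heifer and 2 HP heifers below every LP heifer. The log2 fold change was -1.95 ± 0.46 (SE, FDR 0.0377), and it was -2.18 in HE and -1.72 in LE. Part of the overlap follows the energy level, since BDH1 differed by -3.73 between HE and LE (log2, FDR 3.59e-09): HPHE heifers held 0.237 to 3.15 CPM and LPLE heifers 13.1 to 112 CPM. Without any 1 of heifers 2, 3, 8, 13, 14 or 20 the protein call was lost, and a permutation test that ignores energy gave p = 0.0962. Exact permutation tests within an energy level gave p = 0.0952 in HE and 0.117 in LE.

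PKD2L1, a cation channel of the polycystin family, was also lower in HP heifers. HP values ran from 1.76 to 18.9 CPM (median 4.63) and LP values from 2.84 to 46.4 CPM (median 14.9), and 5 LP heifers lay above every HP heifer. The log2 fold change was -1.12 ± 0.26 (SE, FDR 0.0377), almost equal in HE (-1.09) and LE (-1.15). Like BDH1 it was lower in HE than in LE (log2 -1.81, FDR 3.72e-08), which put the 4 diets in the same order by their medians for both genes, HPHE lowest, then LPHE, HPLE and LPLE. Without heifer 1, 8, 10, 13 or 20 it was no longer called.

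ENSBTAG00000008288 was the called gene with the tightest HP values. All 12 HP heifers lay between 7.82 and 11.8 CPM (median 8.71), whereas LP heifers spread from 7.96 to 31.3 CPM (median 17.7). In LP 8 heifers stood above the highest HP heifer, 4 in HE and 4 in LE, while LPHE heifer 5 (8.15 CPM) and LPLE heifer 10 (7.96 CPM) had values like those of HP heifers. The log2 fold change was -0.93 ± 0.18 (SE, FDR 0.0022), with -1.10 in HE and -0.76 in LE. It kept an FDR under 0.1 whichever heifer was left out (log2 fold change -1.01 to -0.83). The quasi-likelihood F test gave it an FDR of 0.209 and a permutation test over heifers p = 0.00072.

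ENSBTAG00000002758, the most abundant called gene, ran from 141 to 415 CPM in HP (median 226) and from 232 to 857 CPM in LP (median 318). There were 7 HP heifers below every LP heifer. Its log2 fold change was -0.77 ± 0.19 (SE, FDR 0.0857), and 15 of the 24 fits that left out a heifer no longer called it.

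Among the genes higher in HP, ENSBTAG00000001852 had its lowest, median and highest values all higher in HP, and the groups overlapped. HP heifers held 30.9 to 65.9 CPM (median 47.8) and LP heifers 23.8 to 49.5 CPM (median 34.7). Of the HP heifers 6 lay above every LP heifer, and 4 LP heifers lay below every HP heifer. The difference was small, 0.53 ± 0.13 (SE, log2, FDR 0.0776), with 0.65 in HE and 0.41 in LE, and 17 of the 24 fits without a heifer lost the call. Without heifers 7 and 23, the libraries with the lowest share of reads on genes, it was 0.45 (FDR 0.211).

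ENSBTAG00000017718 and ENSBTAG00000045661 were low in LP and variable in HP. ENSBTAG00000017718 ran from 0.104 to 2.24 CPM in LP (median 0.516) and from 0.149 to 7.95 CPM in HP (median 1.95), with the log2 fold change at 2.2 ± 0.48 (SE) and an FDR of 0.0241. Its highest heifers were HPHE heifer 23 and HPLE heifers 13 and 17, and within LE 5 of 6 HP heifers lay above every LP heifer. On log2(CPM + 0.5) ENSBTAG00000017718 differed by 1.93 in LE (p = 0.00433, exact permutation test) and by 0.55 in HE (p = 0.405). It was not called for a protein effect that differed between energy levels. ENSBTAG00000045661 ran from 0.316 to 4.84 CPM in LP (median 1.81) and from 0.529 to 34.1 CPM in HP (median 5.52), with 7 HP heifers above every LP heifer. It differed by 1.83 ± 0.43 (SE, log2) with an FDR of 0.0377. The highest value of ENSBTAG00000045661 was that of HPLE heifer 7, and that of ENSBTAG00000017718 was that of HPHE heifer 23, the libraries with the lowest share of reads on genes. Without both, ENSBTAG00000017718 was about as large at 1.94 (FDR 0.14) and ENSBTAG00000045661 was at 1.21 (FDR 0.302).

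**Figure D3:**
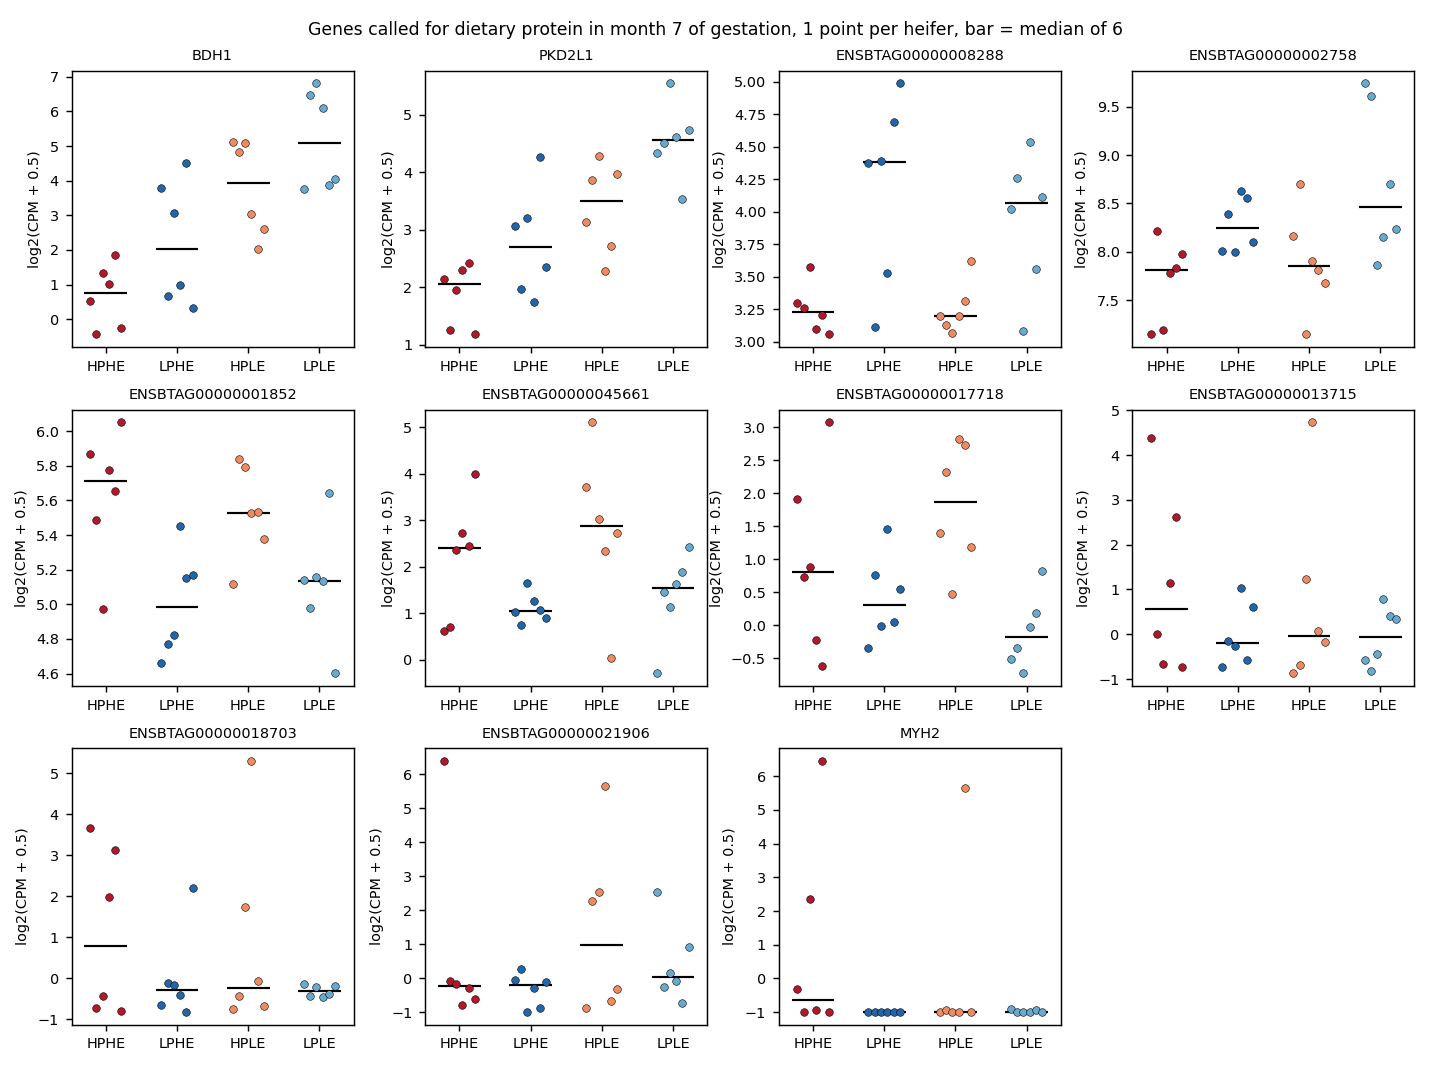
Each of the 11 called genes as log2(CPM + 0.5) in the 24 heifers by diet, with a bar at the median of 6. Values of BDH1 and PKD2L1 fall with protein and with energy, ENSBTAG00000008288 is narrow in HP and wide in LP, and the points that raise MYH2, ENSBTAG00000013715, ENSBTAG00000018703 and ENSBTAG00000021906 are those of 1 to 3 HP heifers.

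The calls of ENSBTAG00000018703, ENSBTAG00000013715 and ENSBTAG00000021906 rested on the libraries that stood apart. Their medians hardly differed: ENSBTAG00000018703 had a median of 0.35 CPM in HP and 0.315 CPM in LP. Its highest values were 39.0 CPM in heifer 13, 12.3 CPM in heifer 2 and 8.21 CPM in heifer 19, and the highest LP value was 4.12 CPM. ENSBTAG00000013715 reached 26.2 CPM in heifer 13 and 20.5 CPM in heifer 2, and ENSBTAG00000021906 reached 83.8 CPM in heifer 2 and 50.0 CPM in heifer 13. ENSBTAG00000013715 passed the abundance filter through HP heifers alone, so its sign was fixed by how it passed. In the order named first, the fitted log2 fold changes of the 3 genes were 3.47, 3.22 and 4.05 (FDR 0.0377, 0.0548 and 0.0673). Without heifers 2, 13 and 19 none of the 3 was called. Leaving out those heifers raised the count of calls from 11 to 36, 28 of them lower in HP, and 5 of the 11 remained: ENSBTAG00000008288, ENSBTAG00000017718, ENSBTAG00000045661, MYH2 and PKD2L1.

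MYH2, a fast myosin heavy chain of skeletal muscle, had the lowest p, and its reads came from few animals. It was at 87.2 CPM in HPHE heifer 19, 49.7 CPM in HPLE heifer 17 and 4.60 CPM in HPHE heifer 11. Heifers 19, 17 and 11 were all HMY. The fitted log2 fold change of MYH2 was 11.1 in HMY heifers alone and 1.81, not called, in LCM heifers alone. The other 9 HP heifers held at most 0.307 CPM, and 6 of the 12 had no read. In LP 10 of 12 heifers had no read and the other 2 had 1 read each, so the group held 2 reads against 6270 in HP. The pooled ratio of 3120 has a 95% counting interval of 863 to 25768, which covers counting error only and not the spread between heifers. The FDR was 2.82e-05, yet a permutation test over heifers gave p = 0.0497.

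The other muscle markers moved with MYH2. Of a list of 24, 7 had an identifier and 5 passed the filter, all through HP heifers alone, chiefly 19, 17 and 11, so their sign was fixed by how they passed. Only MYH2 was called, whereas in HMY heifers alone 4 of the 5 were called and in LCM heifers alone 0. Summed without MYH2, they gave 1.49 to 264 CPM in HP heifers (median 2.39) and 1.35 to 3.97 CPM in LP heifers (median 2.23). The myosin light chain MYL1 was at 0 in all 12 LP heifers and in 7 HP heifers, and skeletal alpha-actin, ACTA1, reached 118 CPM in HP and 1.09 CPM in LP. Without heifers 11, 17 and 19 the fitted log2 difference of MYH2 was 2.57 (FDR 0.9997), a loss that follows from leaving out the heifers with its highest values. The part of muscle RNA in the other calls was not tested beyond that omission, which left 12 genes called, 7 of them shared with the 11. At 12 months of age MYH2 reads were found on both protein levels, up to 35.3 CPM in HP and 17 CPM in LP.

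The metabolic genes listed were mostly lower in HP in sign, and none was called. Identifiers could be given to 185 of 683 listed members, mostly genes that the study had called between energy levels at 12 months in the same animals, so these members were picked for moving with energy and are no independent sample of their pathways. In bulk tissue, fewer cells of a type and less RNA per cell cannot be told apart. Among 15 genes of fatty acid synthesis, 14 were lower in HP in sign, 9 had an unadjusted p under 0.05, and none was called, where 51.3% of all genes tested were higher in sign, 3.94% had such a p and 0.0821% were called. The adipocyte markers were 4 of 4 lower in sign (median -0.26), with summed medians of 4818 CPM in HP and 7051 CPM in LP. THRSP (-0.78) is in both lists, so the 2 lists are not independent, and LEP (-0.09) and CIDEC (-0.04) hardly differed. Without heifers 2, 13 and 19 the adipocyte markers had a median of -0.08, with 2 of 4 higher. Their part in the result was not tested. The median log2 fold change of the fatty acid synthesis genes was -0.46, with -0.41 in HE and -0.37 in LE.

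FASN, the fatty acid synthase itself, ran from 873 to 9241 CPM in HP (median 1811) and from 714 to 10864 CPM in LP (median 4019). Its log2 fold change was -0.82, with a 95% interval from -1.37 to -0.28 and an FDR of 0.529. The citrate carrier SLC25A1 was at -0.71 (interval -1.13 to -0.29, FDR 0.333), the lowest FDR of the list. THRSP, which promotes lipogenesis, was at -0.78, ACSS2, which activates acetate, at -0.54, the elongase ELOVL6 at -0.53, the acetyl-CoA carboxylase ACACA at -0.52, the desaturase SCD at -0.47 and the citrate lyase ACLY at -0.46. The exception was the desaturase FADS2 at 0.33. Heifers of 1 group spread widely, and permutation tests that ignored energy gave p = 0.169 for FASN and 0.139 for THRSP. Exact permutation tests within HE and within LE gave p = 0.169 and 0.245 for FASN, and 0.229 and 0.264 for THRSP. Summed over the list, CPM ranged from 3860 to 31086 in HP (median 7559) and from 5332 to 34033 in LP (median 15144). Of the libraries that stood apart, heifers 2, 13 and 19 summed to 3860, 6647 and 7585 CPM. Without them the list median was -0.31, with 2 members at p under 0.05, and without heifers 7 and 23 it was -0.54. In the same fit 14 of the 15 were called lower in HE than in LE, with a median of -1.23.

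Energy-yielding pathways showed smaller values of the same sign. In the electron transport chain 31 of 32 genes were lower in HP in sign (median -0.17), with COX5A, a subunit of cytochrome c oxidase, lowest at -0.30 and the complex I subunit NDUFA1 highest at 0.0071. All 10 genes of the TCA cycle were lower in sign (median -0.20), with fumarase, FH, at -0.09. Also lower in sign were all 12 of glycolysis and the pentose phosphate pathway (median -0.14), from hexokinase HK2 at -0.40 to enolase ENO1 at -0.015, and all 6 of cholesterol synthesis (median -0.26), from IDI1 at -0.43 to SC5D at -0.06. For every gene of these 4 lists the 95% interval lay within 2-fold, and no gene was called. In the same order, the list medians of HE against LE were -0.38, -0.50, -0.48 and -1.02.

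The lists nearest to the protein supply held no called gene. Of 13 genes of branched-chain amino acid breakdown 12 were lower in HP in sign, with a median of -0.17. The lowest was the propionyl-CoA carboxylase subunit PCCB at -0.27, and all 13 intervals lay within 2-fold. Amino acid transport had 3 genes, from SLC7A8 at -0.24 to the exchanger SLC7A10 at 1.31 (interval 0.23 to 2.38, FDR 0.9999), which was 0.39 without heifer 13. The response to amino acid shortage had 3, from the serine synthesis enzyme PSAT1 at -0.40 to VLDLR at -0.10, and nitrogen metabolism 2, the aminotransferases GOT1 at -0.13 and GOT2 at -0.05. For mTOR and growth control only AKT1S1 could be read, at -0.11.

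**Figure D4:**
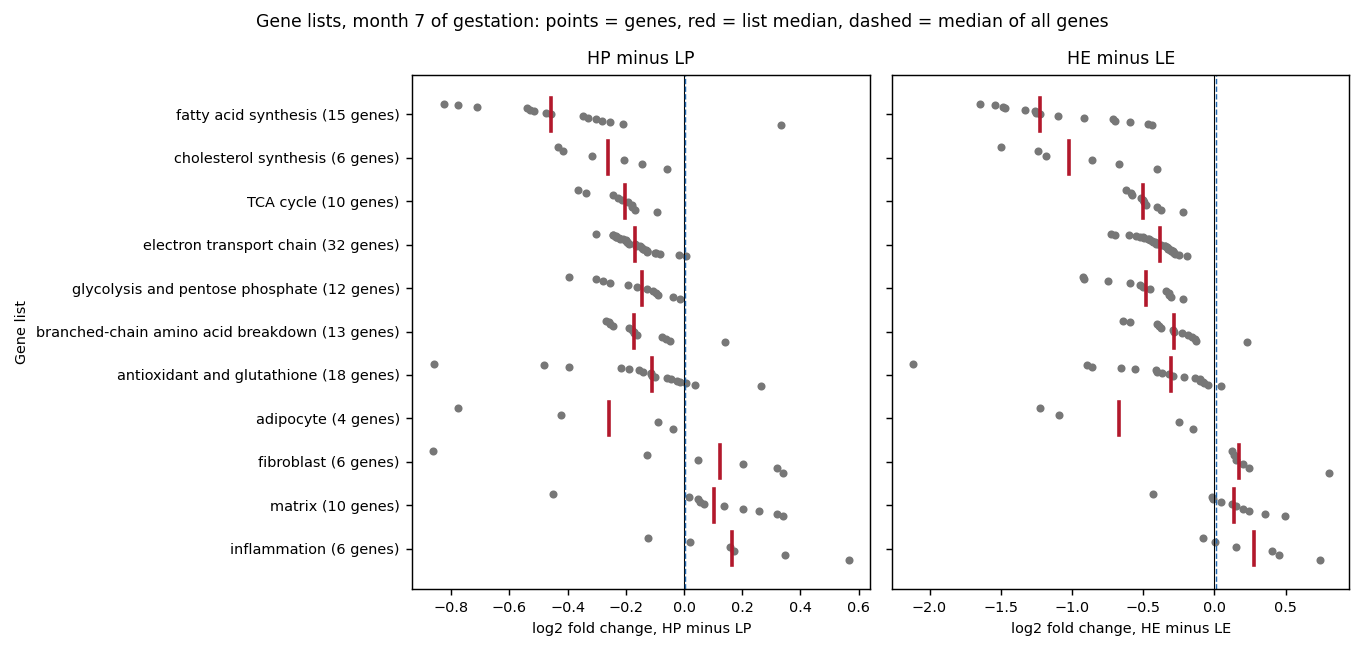
Log2 fold changes in month 7 of gestation of the genes of 11 lists for HP minus LP (left) and HE minus LE (right, a wider scale), with 1 point per gene, the list median in red and the median of all genes as a dashed line. Metabolic lists sit left of 0 in both panels, with the fatty acid synthesis median at -0.46 for protein and -1.23 for energy.

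Other metabolic and signalling genes also stayed without a call. In fatty acid release and oxidation the 6 genes ran from the oxidation enzyme ECHS1 at -0.35 to PDK4, a brake on pyruvate oxidation, at 0.61 (interval 0.13 to 1.09, FDR 0.88). Among 18 antioxidant genes 15 were lower in sign (median -0.11), from GSTT3 at -0.86 to GPX7 at 0.27. The 2 genes of glycerolipid synthesis were DGAT2 at -0.42 and AGPAT2 at -0.41, and the 5 of NAD synthesis and tryptophan breakdown ran from QPRT at -0.24 to KYNU at 0.12. Among secreted factors leptin (LEP) was at -0.09 and the activin subunit INHBA at 0.32. All 5 genes of the insulin, IGF and growth hormone list were higher in HP in sign, from IGFBP6 at 0.0035 to CISH, a target of growth hormone and prolactin signalling, at 0.56. With library size in place of TMM, IGFBP6 was at -0.02.

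The matrix list, of collagens and their processing enzymes, moved with the libraries that stood apart. Of 10 matrix genes 9 were higher in HP in sign (median 0.10), from LOXL1 at -0.45 to the collagen gene COL1A2 at 0.34. Without heifers 2, 13 and 19 the median was -0.14 and 2 of the 10 were higher. The 6 fibroblast markers had a median of 0.13 with 4 higher in sign. Those 4, COL1A1, COL1A2, COL3A1 and DCN, are also in the matrix list, so the 2 lists are not independent. The other fibroblast markers were lower, FBLN1 at -0.13 and PI16 at -0.86. Without heifers 2, 13 and 19 the median of the fibroblast markers was -0.20 with 1 higher. The 4 smooth muscle markers ran from desmin, DES, at -0.51 to ACTG2 at -0.0038 (median -0.39, none at p under 0.05), and without those heifers their median was -1.03 with 3 at p under 0.05. It was 0.45 in HMY and -1.41 in LCM heifers. The 3 interferon genes ran from CXCL10 at -0.73 to OAS1X at -0.56, with a list median of 0.039 in HMY and -1.23 in LCM heifers. CXCL10, a chemokine, was -0.19 without LPHE heifer 16, which held 8.63 CPM where the next highest heifer held 2.80 CPM. The inflammation genes ran from CCL5 at -0.12 to CCL21 at 0.57, and the 3 clock genes from NFIL3 at -0.36 to DBP at 0.29. The 2 stress genes were CRYAB at -0.33 and KLF4 at -0.04. The endothelial marker SELE was at 0.35 and the desmosome protein DSP, read as a keratinocyte marker, at 1.26, with 77.6 CPM in HPLE heifer 9. None was called, and no member of the immune cell, red blood cell and cell division lists had an identifier.

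Within high energy, HPHE against LPHE gave 1 call (0.00746% of genes), MYH2, whose reads in HPHE came nearly all from heifers 19 and 11. Without heifers 11, 17 and 19 another gene was the single call. Under the quasi-likelihood F test there was none, with 217 genes at an unadjusted p under 0.05, and DESeq2 gave 1. No gene was called without heifer 3, 12, 19 or 20, and 2 to 5 were without 5, 11, 15 or 16. Within low energy, HPLE against LPLE gave 10 calls (0.0746%), 8 higher (0.0597%) and 2 lower (0.0149%) in HPLE, where the quasi-likelihood F test gave none, with 420 genes at an unadjusted p under 0.05, and DESeq2 gave 4. MYH2 was 1 of the 10 (log2 8.90, FDR 0.0766, against 11.5 and 0.022 within high energy). It stood at 49.7 CPM in HPLE heifer 17 and had no read in 4 of the 6 HPLE heifers. An exact permutation test of HPLE against LPLE gave p = 0.879 for it. There were 17 calls without heifer 7 and 2 to 5 without heifer 4, 8, 9, 10 or 18.

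PI16, a peptidase inhibitor that marks adventitial fibroblasts, was the called low-energy gene with a symbol among those of lowest p. HPLE heifers held 151 to 274 CPM and LPLE heifers 210 to 878 CPM, with 5 HPLE heifers below every LPLE heifer and 5 LPLE heifers above every HPLE heifer. The log2 fold change was -1.45 ± 0.32 (SE, FDR 0.0211), and an exact permutation test gave p = 0.00433. In HE it was -0.27, with 217 to 794 CPM in HPHE and 285 to 961 CPM in LPHE. The difference between the energy levels, 1.17, had an FDR of 1, so the response of PI16 was not shown to differ between them.

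The other low-energy calls of lowest p were carried by few heifers, apart from ENSBTAG00000017718. ENSBTAG00000018531 was at 256 CPM in HPLE heifer 13 and at 15 to 57.7 CPM in the other 5 HPLE heifers, against 10.7 to 25.6 CPM in LPLE. ENSBTAG00000045494 was at 97.3 CPM in HPLE heifer 1 and 19.9 CPM in HPLE heifer 21 but had no read in 2 other HPLE heifers and in 5 of 6 LPLE heifers. It also stood at 314 CPM in HPHE heifer 23, where 4 of the other 5 HPHE heifers had none.

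Only ENSBTAG00000045659 was called for a protein effect that differed between energy levels, 1 of 13403 genes (0.00746%). In HE it was higher in LP, with 0 to 0.674 CPM in LPHE and 0 to 0.106 CPM in HPHE. In LE it was higher in HP, with 38.4, 5.23 and 2.35 CPM in HPLE heifers 9, 7 and 13 and at most 0.0504 CPM in the other 3, against at most 0.042 CPM in LPLE. ENSBTAG00000045659 passed the abundance filter only through HPLE heifers 9, 7 and 13, so its sign in LE was fixed by how it passed. The FDR of the difference was 0.000134, but it is no independent support for that reason, and LPLE held only 4 reads and HPHE 7. The quasi-likelihood F test called no gene, with 113 at an unadjusted p under 0.05 (DESeq2 called 1).

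ENSBTAG00000016148, a gene below the abundance filter, was followed because of its 12-month values in these animals. How many of all genes separate the high-energy diets without overlap was not counted, so its separation is no result about this gene alone. In gestation it was at 0 to 0.307 CPM in the 6 HPHE heifers and at 0.952 to 5.10 CPM in the 6 LPHE heifers, with no overlap. The same heifers were already separated at 12 months, so the gestation values are given as a description with no test. HPLE heifers held 0.677 to 1.34 CPM, and LPLE heifers 0.638 to 1.07 CPM apart from heifer 10 at 0.0259 CPM. Fitted without the filter, the log2 fold change was -4.28 ± 0.62 (SE) in HE and 0.40 ± 0.54 (SE) in LE. At 12 months the same HPHE heifers ranged from 0 to 0.205 CPM and the LPHE heifers from 0.466 to 5.36 CPM, and LPLE heifers 10 and 22 were low at 0.0695 and 0.0677 CPM. A further gene of the 12-month comparison, ENSBTAG00000047529, was at 52.8 CPM in HPLE heifer 13 and at most 1.28 CPM in every other heifer, and this heifer had held 96.4 CPM at 12 months.

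**Figure D5:**
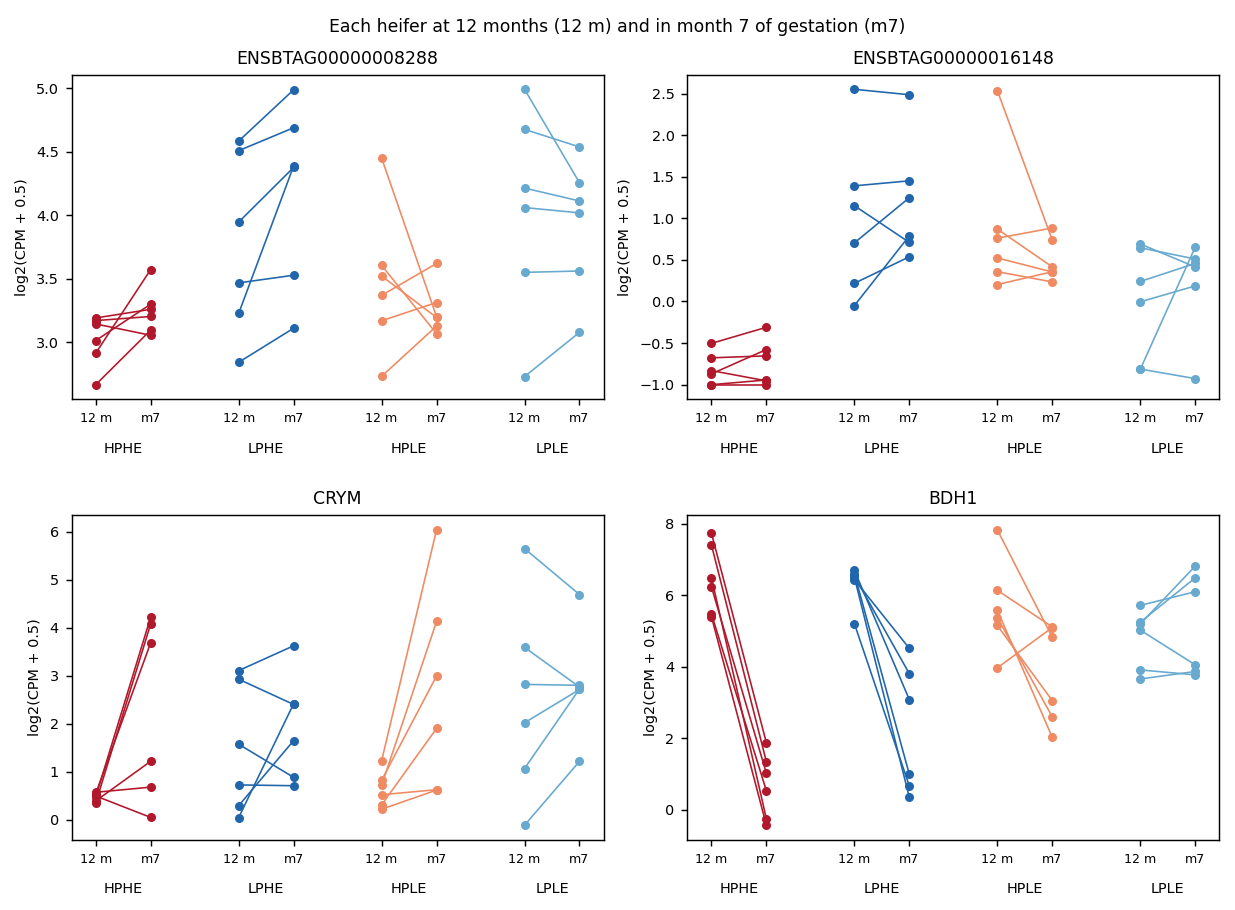
ENSBTAG00000008288, ENSBTAG00000016148, CRYM and BDH1 as log2(CPM + 0.5) in each heifer at 12 months (12 m) and in month 7 of gestation (m7), joined by a line and grouped by diet. For ENSBTAG00000016148 every HPHE heifer lies below every LPHE heifer at both samplings, while CRYM climbs in 3 HPHE heifers to 12.4 to 18.2 CPM and BDH1 drops in all HE heifers.

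The protein effect was set beside that of 12 months, measured while the diets were fed and in the same heifers. At 12 months 7 of 13339 genes were called (0.0525%). CRYM, a cytosolic thyroid hormone-binding protein, was then lower in HP (log2 -2.64, FDR 0.00274), with 0.666 to 1.85 CPM in HP and 0.426 to 49.7 CPM in LP. In gestation it was at 0.537 to 65.3 CPM in HP (median 5.36) and 1.14 to 25.3 CPM in LP (median 5.46), a log2 fold change of 1.0 with a 95% interval from -0.08 to 2.08. Without heifers 2, 13 and 19 it was -0.26. PRLR, the prolactin receptor, went from -1.83 at 12 months (FDR 0.00274) to 1.37 in gestation (interval 0.19 to 2.55, FDR 1), and to -0.08 without those 3 heifers. Its highest gestation values were 22.7, 13.3 and 11.9 CPM in heifers 13, 2 and 19.

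Between samplings 8 of 13718 genes differed in their protein effect (0.0583%), CRYM by 3.66 (FDR 0.0181), PRLR by 3.22 (FDR 0.0406) and BDH1 by -2.73 (FDR 0.0181) on the log2 scale. BDH1 had been 0.79 higher in HP at 12 months (FDR 1). The others of lowest p were ENSBTAG00000018703 (5.52), ENSBTAG00000013715 (5.04) and ENSBTAG00000001150 (4.31). With the heifer as a block 6 genes were called and 2 of the 8 remained, BDH1 (-2.22, FDR 0.0017) and ENSBTAG00000018703 (3.92, FDR 0.0414), whereas CRYM was at 1.82 (FDR 0.624). The quasi-likelihood F test called 2 genes, none of them among the 8.

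The genes called in gestation were mixed in their sign at 12 months, and BDH1 had the opposite sign. For ENSBTAG00000018703 and ENSBTAG00000013715 the difference between samplings in the unblocked fit (5.52 and 5.04) exceeded the gestation log2 fold change (3.47 and 3.22). Their sign at 12 months was therefore opposite too. MYH2, ENSBTAG00000021906 and ENSBTAG00000002758 are not compared here. The genes given next had the same sign at both samplings. ENSBTAG00000008288 was at -0.77 at 12 months, ENSBTAG00000017718 at 2.37, ENSBTAG00000045661 at 1.17 and ENSBTAG00000001852 at 0.62, none called. For ENSBTAG00000008288 the LP heifers 5 and 10, low in gestation, were also the lowest LP heifers at 12 months, at 6.68 and 6.14 CPM. PKD2L1 was at -0.14 at 12 months, when its medians were 25.8 CPM in HP and 27.5 CPM in LP.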

How the data were processed

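Subcutaneous adipose tissue libraries (polyA mRNA, paired-end) were analysed from month 7 of gestation, with those of 12 months beside them. The deposited values are raw counts of reads per Ensembl gene, made by the authors without normalization. Their processing notes name cutadapt 1.3, TopHat2 2.0.12, SAMtools, HTSeq and the build UMD3.1. The library kit does not mark strand, so reads of overlapping antisense genes cannot be told apart. No site or method of the gestation sampling is given in the sources used here. The 5 summary rows of HTSeq were left out, which kept 24616 genes, and sequenced reads are counted once per gene, so intervals of counts cover counting error only. Diet, pedigree and heifer were taken from the sample labels. Depth on genes was 22430093 to 61027456 reads, and a chi-square test over genes gave at least 55.8 per degree of freedom for each of 60 pairs of libraries of 1 diet, so no libraries were merged.

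The abundance filter was 2 CPM reached by 3 or more libraries (13403 genes), TMM factors were applied, and a negative binomial model of protein, energy and pedigree was fitted in edgeR 4.0.16 (R 4.3.3) with tagwise dispersions and tested by likelihood ratio. Effects within energy levels came from a 4-diet factor with pedigree, and the sampling difference from all 48 samples. Genes were called at an FDR under 0.1. The SE was taken as log2 fold change over root of the likelihood ratio, and intervals are 1.96 SE on either side. Single genes were compared on log2(CPM + 0.5) by permutation tests (scipy 1.17.1, two-sided, unadjusted), exact for 6 against 6. DESeq2 1.42.0 and the quasi-likelihood F test were alternatives, as were other scalings, filters, covariates and subsets. The fits were tested on simulated data. The same heifer gave both samplings, which pairs them. The correlation of its deviations between samplings was -0.058 to 0.549 over 24 heifers, above 0.1 in 20.

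The deposited counts carry no symbols. Symbols came from the study's tables for 1006 identifiers (999 genes tested), and the reference table could not be matched to Ensembl identifiers. The 31 gene lists, the members compared and the genes noted at 12 months (CRYM, PRLR, DSP, ACTA1, ENSBTAG00000016148 and ENSBTAG00000047529) were chosen with earlier results of these data known. Named were all called genes, the 5 of lowest p in each further comparison, the extremes of each list (some are not reported here) and those 6 genes. Other genes of the lists were named after their values were seen.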

Additional observations from a re-analysis of the deposited data

Results flagged for a closer look

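Within diets, 243 groups of 6 heifers were examined for a library far from the others (Dixon's test on log2(CPM + 0.5)) and 18 were found, where chance flags about 1 group in 20. Many of the genes were named for their values in these same libraries, and the groups share heifers. That rate is therefore no reference for the 18. High for muscle genes were HPLE heifer 17, with MYH2 at 49.7, ACTA1 at 75.1 and TNNI2 at 9.60 CPM, and HPHE heifer 19, with TNNI2 at 9.89 CPM. HPHE heifer 2 was far from its group with ENSBTAG00000021906 at 83.8 CPM and, on the low side, LEP at 110 CPM. HPLE heifer 13 was far with ENSBTAG00000013715 at 26.2 CPM and ENSBTAG00000047529 at 52.8 CPM. HPHE heifer 23 was far with ENSBTAG00000045494 at 314 CPM and THRSP at 1162 CPM, and LPHE heifer 24 with ENSBTAG00000018703 at 4.12 CPM and ENSBTAG00000045494 at 35.2 CPM. Far from their groups too were ENSBTAG00000045659 in HPHE heifer 19 (0.106 CPM), ENSBTAG00000045494 in LPLE heifer 22 (0.357 CPM), ENSBTAG00000016148 in LPLE heifer 10 (0.0259 CPM), FADS2 in LPLE heifer 8 (9.36 CPM), OAS1X in HPHE heifer 15 (8.34 CPM) and DBP in HPHE heifer 11 (86.5 CPM).

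The protein effect differed between energy levels for ENSBTAG00000045659, which passed the abundance filter through HPLE heifers alone. The difference was -11.66 on the log2 scale in the fit, a value that rests on groups with few reads and is no measure of size. Between gestation and 12 months the protein effect differed for ENSBTAG00000018703 (5.52), ENSBTAG00000013715 (5.04), ENSBTAG00000001150 (4.31), CRYM (3.66), PRLR (3.22) and BDH1 (-2.73). These are unblocked fits, although the same heifers gave both samplings. With the heifer as a block BDH1 and ENSBTAG00000018703 remained called, and CRYM (1.82, FDR 0.624), ENSBTAG00000013715 (2.64, FDR 0.255) and ENSBTAG00000001150 (2.69, FDR 0.172) were not, nor was PRLR.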

How the results depend on the processing

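The 11 calls for protein in gestation were 1 with the quasi-likelihood F test, 3 with DESeq2, 3 with at least 10 counts in every sample, 20 without a filter, 7 at an FDR under 0.05, 5 with all 48 samples in the fit, 7 without energy in the model, 42 in HMY heifers alone and 1 in LCM heifers alone, and 2 to 27 with each heifer left out (2 without heifer 8, 27 without heifer 24). The 10 calls within low energy were 0 with the quasi-likelihood F test, 4 with DESeq2, 3 with at least 10 counts, 6 at an FDR under 0.05, 1 with all 48 samples and 2 to 17 with each heifer left out. The single call within high energy was 0 with the quasi-likelihood F test, at least 10 counts, all 48 samples or no pedigree, 2 with library size, 5 without a filter, 6 with the 12 HE samples alone and 0 to 5 with each heifer left out. The single difference between energy levels was 0 with the quasi-likelihood F test, at least 10 counts or all 48 samples, 4 without a filter and 1 to 4 with each heifer left out. The 915 calls for energy were 1814 with DESeq2, 524 at an FDR under 0.05, 542 with all 48 samples and 591 to 1175 with each heifer left out. At 12 months the quasi-likelihood F test gave 0 calls, with 233 genes at an unadjusted p under 0.05 (DESeq2 5), and between samplings it gave 2. The cause was not tested.

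Chosen after seeing the data were the following. With prior degrees of freedom estimated (3.3 in place of 10) the counts for protein, within HE, within LE and for energy were 3, 0, 0 and 1386. Without heifers 2, 13 and 19 there were 36 calls for protein, 21 within LE and 2 for the difference between energy levels, and without heifers 7 and 23 there were 29, 19 and 2, with 471 for energy. Without heifers 11, 17 and 19, chosen for their MYH2 values, the counts stayed within 1.5 times, with 12 for protein. A protein effect that differed between HMY and LCM heifers was called for 7 genes, 0 with the quasi-likelihood F test (527 at an unadjusted p under 0.05) and 4 with DESeq2.

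Comparing HP with LP needs no pairing, since different heifers are compared. Between samplings the fit with the heifer as replicate block gave 6 calls in place of 8, 2 of them shared.

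No called gene changed sign under these alternatives. Genes that were not called did, some near 0 and others, such as ACTA1 and PRLR, far from it: IGFBP6 with DESeq2 (-0.0047), library size (-0.019), RLE (-0.0047), no filter (-0.0049), no pedigree (-0.00045), all 48 samples (-0.011), LCM alone (-0.074), without heifers 2, 13 and 19 (-0.27) or 11, 17 and 19 (-0.019), NDUFA1 without a filter (-0.00010), with all 48 samples (-0.0025) and in LCM (-0.021), and ACTG2 without pedigree (0.0055), with the 4-diet mean (0.044), in HMY (1.19) and without heifers 7 and 23 (0.42). In HMY alone DES (0.26), LEP (0.0053) and CXCL10 (0.046) reversed, and in LCM alone COL1A2 (-0.10), ENO1 (0.075), INHBA (-0.36) and ACTA1 (-1.74). Without heifers 2, 13 and 19 CIDEC (0.091), COL1A2 (-0.15), FADS2 (-0.12), SC5D (0.016), GPX7 (-0.017), LEP (0.11), INHBA (-0.22), CCL21 (-0.028), CRYM (-0.26) and PRLR (-0.084) did. With each heifer left out the ranges spanning 0 were ACTG2 (-0.27 to 0.34), CCL5 (-0.21 to 0.084), CIDEC (-0.094 to 0.0096), ENO1 (-0.045 to 0.018), IGFBP6 (-0.18 to 0.085), KYNU (-0.020 to 0.18), LEP (-0.22 to 0.012), NDUFA1 (-0.042 to 0.053) and SLC7A8 (-0.35 to 0.052).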
